A study of Homo sapiens with 6 samples.

Results

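The genes described are 43 epithelial structure genes, epithelial regulators and mesenchymal markers, chosen by name from the 62703 rows of the count table. Of these, 35 are epithelial (6 keratins, 6 genes of the adherens junction group with EPCAM, 11 tight junction genes, 6 desmosome genes and 6 regulators) and 8 are mesenchymal markers. At least 1 count was found for 42 of them, and 38 of the 43 passed the expression filter and were tested. RNA-seq of poly(A) RNA was performed on 22Rv1 cells, an established human prostate cancer line, given 25 pmol of small interfering RNA, either a pool with no target (siCtrl, n = 3) or a pool against MED12 (siMED12, n = 3). MED12 is a subunit of the kinase module of Mediator, the complex that links transcription factors to RNA polymerase II. Transfection followed 24 h after seeding, the medium was changed 6 h later in both groups, and cells were harvested 3 days after transfection. Both groups were transiently transfected cultures of this 1 line. The labels give replicate numbers without saying whether the libraries came from separate cultures. The study's methods state, as a general rule with exceptions marked, at least 3 biological replicates. The p-values measure the spread between these libraries.

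Epithelial cells are held together by adherens junctions, tight junctions and desmosomes. Cadherins and catenins build the first, claudins with their scaffold proteins the second, and desmosomal cadherins with plakoglobin, plakophilins and desmoplakin the third, which anchors the keratin filaments. Prostate luminal cells carry the simple keratins KRT8 and KRT18, whereas KRT5 marks basal cells. In epithelial to mesenchymal transition (EMT), factors of the SNAI, ZEB and TWIST families repress CDH1 and other junction genes, and cells gain proteins such as vimentin, N-cadherin and fibronectin. GRHL2, OVOL1, OVOL2 and the splicing factors ESRP1 and ESRP2 act on the epithelial side.

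MED12 itself stood at 67.8, 77.7 and 72.6 CPM (counts scaled to TMM-adjusted library size) in siCtrl replicates 1, 2 and 3, and at 23.9, 15.0 and 30.1 CPM in siMED12. The groups did not overlap, and the log2 fold change was -1.66 ± 0.23 (SE, edgeR adjusted p = 0.0314). Totals lay between 16136699 and 17012788 counts per library, so that depth differed little. Same-numbered libraries of the 2 groups departed together from their group means (correlations across genes 0.532, 0.373 and 0.643), and the mitochondrially encoded share of counts, 4.43% to 10.1%, was lowest in both libraries numbered 1 and highest in both numbered 3. The edgeR test is therefore given both unblocked and blocked by replicate number. Summed markers of basal, endothelial and immune cells were low: the 4 basal genes reached 0.654 to 1.34 CPM in siCtrl and 0.760 to 1.13 CPM in siMED12, with KRT5 and KRT14 at 0 in every library. Endothelial genes summed to 0 to 0.122 CPM in siCtrl and to 0 in siMED12, and immune genes to 0.443 to 1.90 and 0.653 to 1.25 CPM. The 5 fibroblast genes summed to more, 25.3 to 38.8 and 26.2 to 41.8 CPM, ranges that overlapped. Most of this was COL1A1 and LUM, which averaged 19.8 and 11.55 CPM in siCtrl, with DCN next at 0.444 CPM. The 7 luminal genes, which include KRT8 and KRT18, summed to 3060 to 3199 CPM in siCtrl and to 2631 to 2783 CPM in siMED12. They did not all move with this sum. HOXB13 averaged 261 CPM in siCtrl and 341 CPM in siMED12, and FOLH1 210 and 218 CPM. The means of the rest, KRT8 and KRT18 among them, were lower in siMED12.

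Per length of the canonical transcript (RPKM), the simple keratins stood highest in siCtrl. KRT8 stood at 413, 447 and 524 RPKM in replicates 1, 2 and 3, and KRT18 at 354, 363 and 394 RPKM, so that every KRT8 value lay above every KRT18 value. The next 4 genes were KRT19 at 131 ± 13.3 RPKM (mean ± SD, n = 3), CLDN4 at 130.5 ± 3.25, CLDN7 at 129 ± 5.27 and CTNNA1 at 119.7 ± 13.2, which differed by no more than their SDs. CDH1, the E-cadherin gene, followed at 90.7 ± 2.92 RPKM. KRT7 took place 9 with 64.2 ± 36.8 RPKM, and its mean ± SD spans the means of the genes from place 7 (CDH1) to place 15 (ESRP1, 32.3 ± 1.18). Among the mesenchymal markers TWIST1 was highest at 14.8 ± 3.32 RPKM, followed by FN1 at 9.33 ± 0.844, SNAI1 at 4.28 ± 3.43 and VIM at 4.23 ± 0.431, with overlapping SDs for the last pair. CDH2 stood at 2.46 ± 0.773 RPKM, and SNAI2, ZEB1 and ZEB2 stood under 1 RPKM. KRT8, KRT18, KRT19, CDH1, CLDN4 and CLDN7 thus stood well above vimentin and N-cadherin per length, whereas OCLN (3.47 ± 0.186 RPKM), CDH17 (3.42 ± 0.821), DSC2 (1.62 ± 0.228) and CLDN1 (1.49 ± 0.151) had means under that of VIM.

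**Figure D1:**
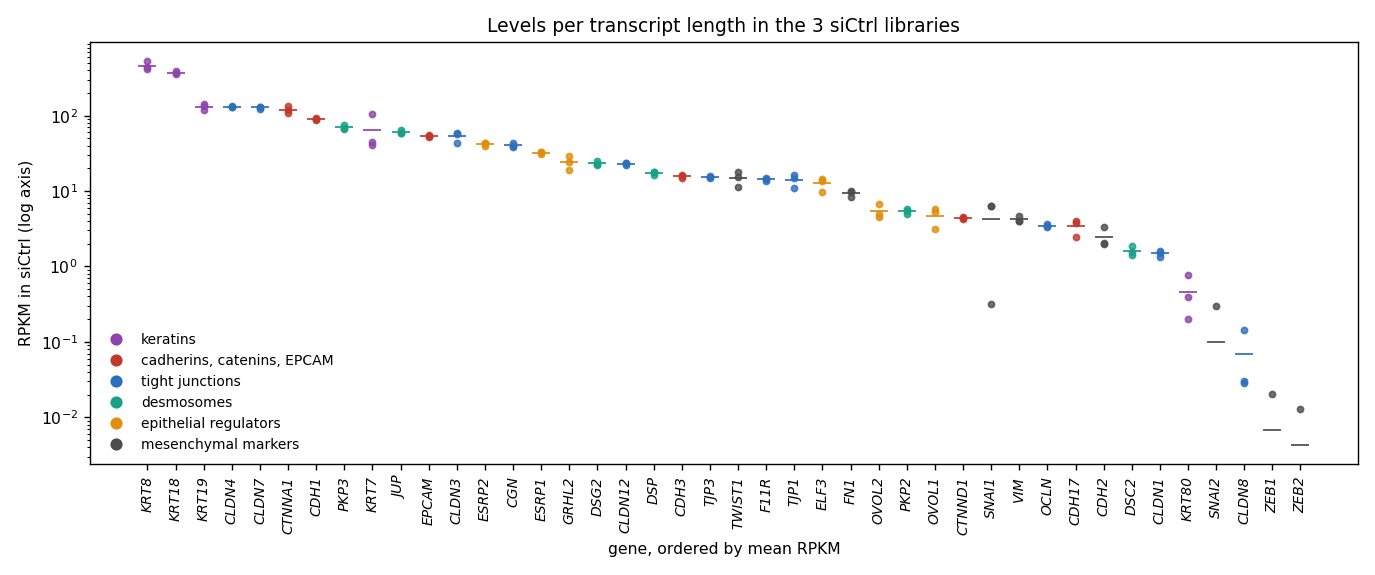
Level per transcript length (RPKM, log axis) of the genes in the 3 siCtrl libraries, ordered by their mean (bar), with points for libraries and colours for roles. KRT8 and KRT18 stand highest (461 and 371 RPKM on average) and ZEB1 and ZEB2 lowest, and libraries at 0, KRT5 among them, are not drawn.

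KRT5, CLDN8, ZEB1, ZEB2 and SNAI2 were too low to test, and their counts are given as they stand. KRT5 had 0 counts in every library, which allows up to 3 counts, or 0.175 to 0.190 CPM. CLDN8, a claudin, had 1, 1 and 5 counts in siCtrl and 8, 6 and 10 in siMED12, groups that did not overlap but that a few counts set. ZEB1 had 2, 0 and 0 against 3, 0 and 5 counts, ZEB2 had 2, 0 and 0 against 2, 0 and 0, and SNAI2 had 11, 0 and 0 against 8, 6 and 5. At this depth no difference in the EMT repressors ZEB1, ZEB2 and SNAI2 was detectable.

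Without the block, CDH17 rose and FN1 fell after MED12 knockdown, 1 gene in each direction of the 38 tested, where 0.151% of all 17901 genes tested were higher and 0.413% lower (0.564% in either direction) at an edgeR adjusted p below 0.05. Other unblocked settings called more: the DESeq2 Wald test added KRT8, KRT18, CDH1, CDH3, CLDN3, TJP3, CGN and DSP, and a filter of at least 1 count in any library added KRT7, CLDN3, CGN and DSP. The share of all genes called under these settings is not given, so the added calls cannot be set against it. At an unadjusted p below 0.05 the counts were 9 higher and 6 lower, against 7.65% and 7.93% of all genes. With the replicate block 14 rose and 12 fell, or 36.8% and 31.6% of the 38, against 17.1% and 16.2% of all genes (33.3% in either direction). Every siMED12 library lay above every siCtrl library for 9 genes and below for 9, or 23.7% each, against 11.2% and 10.9% of all genes (22.1% in either direction). The median log2 fold change was 0.00 over the 38 genes and 0.02 over all genes tested, so the list did not move one way. Since the genes were chosen with earlier results known, these counts describe the list. In what follows, rose and fell refer to an adjusted p below 0.05 with the block, library values are CPM in the order of replicates 1, 2 and 3, and ± after a log2 fold change is the SE of the fit without the block. In bulk RNA, fewer cells that express a gene and less RNA per cell cannot be told apart.

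**Figure D2:**
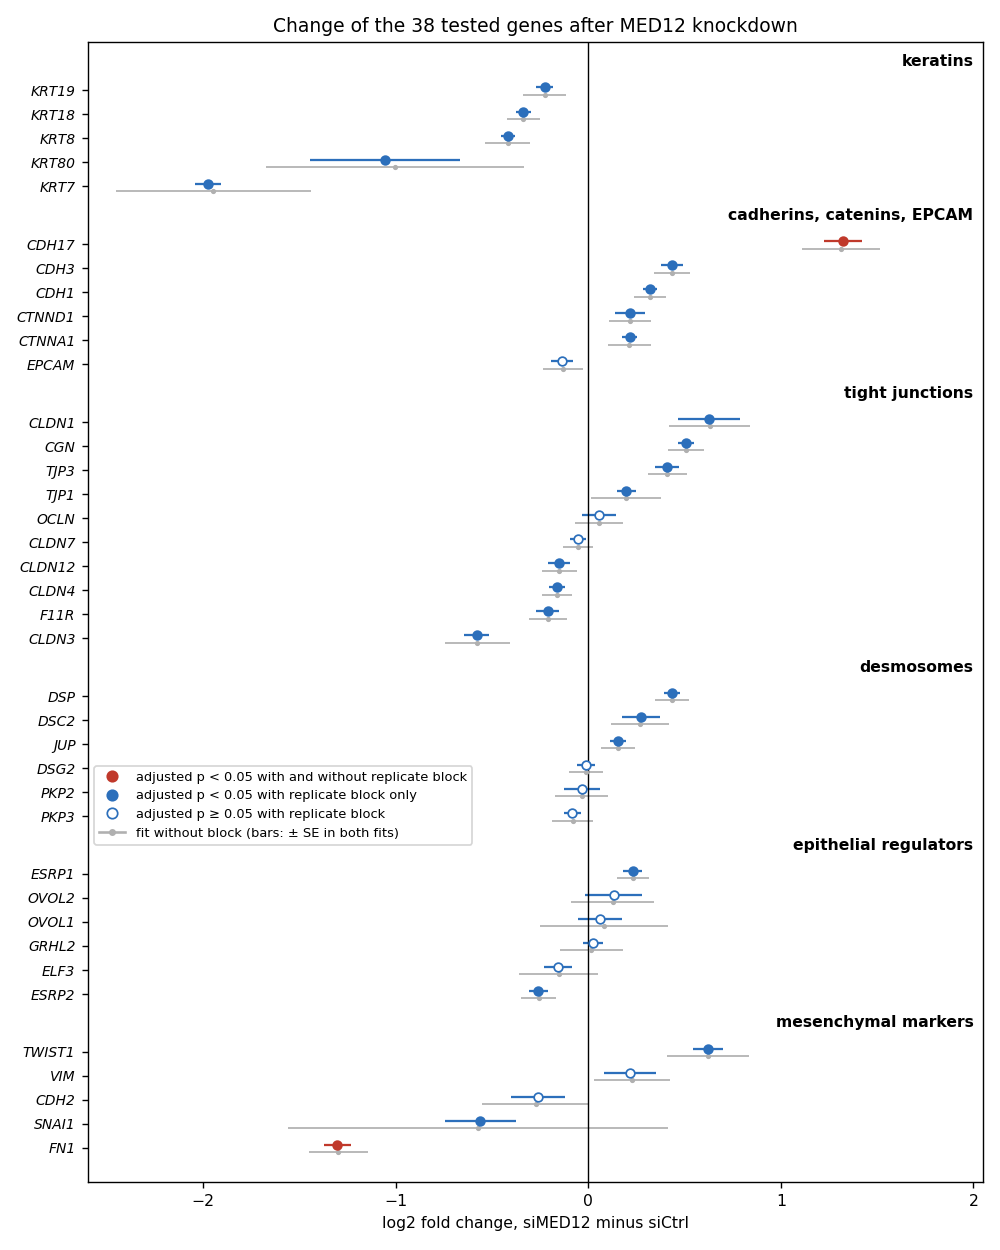
Log2 fold change (siMED12 minus siCtrl) of the 38 tested genes by role, from the fit with the replicate block (large points) and without it (small grey points), each ± SE. The 5 tested keratins lie to the left of 0, 5 of the 6 genes of the cadherin group to the right, and FN1 and CDH17 are the genes past the threshold in both fits.

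All 5 tested keratins fell with the block, against 16.2% of all genes, and none passed in the edgeR fit without it. KRT7, a type II keratin of simple epithelia, was at 73.2, 66.3 and 173 CPM in siCtrl against 18.5, 15.0 and 47.8 CPM in siMED12. The groups did not overlap although siCtrl replicate 3 stood far above the other controls, and siMED12 replicate 3 was likewise the highest of its group. Within pairs of the same number the change was -74.8%, -77.4% and -72.4%, and the gene passed with the block but not without it (log2 fold change -1.95 ± 0.51, unblocked and blocked adjusted p = 0.125 and 1.42e-24), unless the filter was lowered to at least 1 count in any library (unblocked adjusted p = 2.20e-06). KRT8, the main type II keratin of luminal cells, was at 736, 797 and 934 CPM in siCtrl against 566, 606 and 674 CPM in siMED12, without overlap (log2 fold change -0.42 ± 0.12, unblocked and blocked adjusted p = 0.143 and 6.65e-12). Its type I partner KRT18 was at 501, 513 and 557 CPM against 407, 401 and 434 CPM, also without overlap (log2 fold change -0.34 ± 0.09, unblocked and blocked adjusted p = 0.118 and 2.46e-09). Within the pairs KRT8 changed by -23.0%, -24.0% and -27.9% and KRT18 by -18.8%, -21.7% and -22.0%, less than KRT7 in each, and with the DESeq2 Wald test KRT8 and KRT18 also passed unblocked (adjusted p = 0.0427 and 0.0246). KRT19, a type I keratin, went from 199.8, 163 and 184 to 166, 139 and 162 CPM (log2 fold change -0.23 ± 0.11, unblocked and blocked adjusted p = 0.379 and 8.35e-05), and its groups overlapped although each pair was lower. KRT80 was low, with 13, 24 and 49 counts in siCtrl and 7, 8 and 28 in siMED12 (log2 fold change -1.01 ± 0.67, unblocked and blocked adjusted p = 0.537 and 0.0329), and its call was lost when both libraries numbered 1 (adjusted p = 0.0501), 2 (0.173) or 3 (0.119) were left out.

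KRT7 made up 9.84%, 8.36% and 16.9% of the summed RPKM of the type II keratins KRT5, KRT7, KRT8 and KRT80 in siCtrl, and 3.46%, 2.64% and 7.22% in siMED12. KRT8 took 83.0% to 91.6% in siCtrl and 92.7% to 97.3% in siMED12. The ratio of the type II sum to the type I sum (KRT18 and KRT19) was 0.919, 1.02 and 1.20 in siCtrl and 0.807, 0.908 and 0.961 in siMED12, lower in each pair while the groups overlapped. KRT8 and KRT18 lie side by side on chromosome 12 (KRT18 at chr12:52948871-52952906, GRCh38) and share 525 exonic bases on opposite strands, and the use of strand in counting was not stated. Rows of KRT8 pseudogenes held counts equal to 14.9% to 16.1% of those of KRT8, and KRT18 pseudogenes 2.13% to 2.94%, with similar shares in both groups. KRT7 (chr12:52232520-52252186) overlaps 314 exonic bases of genes on the other strand.

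In the adherens junction group 5 of 6 genes (83.3%) rose and none fell, against 17.1% and 16.2% of all genes, with a median log2 fold change of 0.27 against 0.02 over all genes. CDH17, the liver-intestine cadherin, was at 9.10, 14.7 and 13.8 CPM in siCtrl against 27.0, 32.8 and 33.5 CPM in siMED12. Each siMED12 library lay above each control, and the rise passed in both fits (log2 fold change 1.31 ± 0.20, unblocked and blocked adjusted p = 0.0419 and 5.06e-14). Leaving out any of the 6 libraries took the adjusted p without the block to 0.0548 (siCtrl replicate 3), 0.0788 (siMED12 replicate 3), 0.0916 (siCtrl replicate 1), 0.108 (siMED12 replicate 1), 0.186 (siCtrl replicate 2) or 0.221 (siMED12 replicate 2), with log2 fold changes of 1.11 to 1.44. CDH1, the E-cadherin of epithelial contacts, was at 430.2, 452 and 426 against 519, 571 and 543 CPM, without overlap (log2 fold change 0.32 ± 0.08, unblocked and blocked adjusted p = 0.123 and 8.40e-09). CDH3, or P-cadherin, was at 71.6, 72.6 and 67.1 against 88.5, 99.4 and 97.8 CPM, again without overlap (log2 fold change 0.44 ± 0.09, unblocked and blocked adjusted p = 0.0808 and 5.14e-08). CDH3 (chr16:68636189-68727468) and CDH1 (chr16:68737292-68835537) are neighbours on the same strand, 9.8 kb apart.

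The catenins link cadherins to actin and hold them at the membrane. CTNNA1, alpha-catenin, was at 441, 503 and 405 against 522, 567 and 474 CPM, higher in each pair although the groups overlapped (log2 fold change 0.21 ± 0.11, unblocked and blocked adjusted p = 0.411 and 1.60e-05). CTNND1, or p120 catenin, was at 29.6, 28.4 and 29.9 against 34.3, 32.0 and 35.8 CPM with no overlap (log2 fold change 0.22 ± 0.11, unblocked and blocked adjusted p = 0.390 and 0.0251). Its call was lost without the libraries numbered 1 (0.142), 2 (0.0823) or 3 (0.134) and after correction for GC content and length (0.233). It was also lost with the DESeq2 Wald test within the block (adjusted p = 0.152). Of its exonic bases, 5952 are shared with other genes on its own strand, so its counts are uncertain. EPCAM, a surface adhesion protein of epithelia, ranged from 81.8 to 85.8 CPM in siCtrl and from 71.1 to 86.1 CPM in siMED12 (log2 fold change -0.13 ± 0.10, unblocked and blocked adjusted p = 0.611 and 0.0641), and passed, lower, without the libraries numbered 3 (adjusted p = 0.00602), with DESeq2 size factors (0.0412) and after the GC and length correction (0.0412).

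Of the 10 tested tight junction genes 4 rose and 4 fell (40% each, against 17.1% and 16.2% of all genes), and the median log2 fold change was 0.00. The rises were in scaffold proteins and 1 claudin. CGN, or cingulin, which ties the junction to actomyosin, was at 198, 205 and 219.8 CPM in siCtrl against 269, 312 and 305 CPM in siMED12, without overlap (log2 fold change 0.51 ± 0.09, unblocked and blocked adjusted p = 0.0615 and 1.85e-12). TJP3, the scaffold ZO-3, was at 47.4, 48.5 and 45.4 against 61.4, 67.6 and 58.7 CPM, also without overlap (log2 fold change 0.41 ± 0.10, unblocked and blocked adjusted p = 0.110 and 1.57e-06). TJP1, the scaffold ZO-1, was at 117, 107 and 78.7 against 139, 116 and 92.9 CPM, where the groups overlapped and each pair was higher (log2 fold change 0.20 ± 0.18, unblocked and blocked adjusted p = 0.679 and 0.00189). Its call was lost without the libraries numbered 1 (0.0850) and after the GC and length correction (0.184). CLDN1, a barrier-forming claudin, was low at 5.59, 5.25 and 4.57 against 9.33, 7.95 and 6.57 CPM but did not overlap between groups (log2 fold change 0.63 ± 0.21, unblocked and blocked adjusted p = 0.201 and 0.00217), and without the libraries numbered 1 its adjusted p was 0.0518.

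The falls were in claudins and F11R. CLDN3 was at 55.6, 72.0 and 74.9 CPM in siCtrl against 37.2, 43.9 and 54.8 CPM in siMED12, with the highest siMED12 library just under the lowest control (log2 fold change -0.58 ± 0.17, unblocked and blocked adjusted p = 0.161 and 1.84e-09). CLDN4, its neighbour on chromosome 7 at 29.3 kb, was at 218, 228 and 218 against 199, 196 and 198 CPM, a smaller fall without overlap (log2 fold change -0.16 ± 0.08, unblocked and blocked adjusted p = 0.360 and 0.00252). F11R, the junctional adhesion molecule JAM-A, was at 69.8, 62.7 and 66.6 against 61.3, 53.8 and 56.9 CPM without overlap (log2 fold change -0.21 ± 0.10, unblocked and blocked adjusted p = 0.354 and 0.00447), and it shares 1853 exonic bases with a gene on its own strand. CLDN12 was at 82.4, 82.3 and 77.5 against 77.0, 68.2 and 73.1 CPM (log2 fold change -0.15 ± 0.09, unblocked and blocked adjusted p = 0.490 and 0.0341). Within the block its call was lost without the libraries numbered 2 (0.179), with scaling by library size only (0.118) and with the DESeq2 Wald test (0.111). It shares 1178 exonic bases with other genes on its own strand. CLDN7 was at 203, 204 and 189 against 194, 189.6 and 191 CPM with overlapping groups (log2 fold change -0.05 ± 0.08, unblocked and blocked adjusted p = 0.812 and 0.360). OCLN, or occludin, ranged from 20.4 to 22.7 CPM in siCtrl and from 21.0 to 22.9 CPM in siMED12 and did not pass (adjusted p = 0.689 with the block). Counts of an OCLN pseudogene equalled 12.2% to 21.3% of those of OCLN.

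Sequences upstream of the start sites of CGN and CLDN3, which moved in opposite directions, and of FN1, described with the mesenchymal markers, were read from the RefSeq promoter table (GRCh38.p14), which holds an entry for 22 of the 43 genes at 40 start sites. They are printed 5′ to 3′ on the strand of the gene, and capitals mark GGGCGG (the GC box) or TGACGTCA (the cyclic AMP response element) on either strand, with overlapping matches counted. The 3 were picked from 6 genes that met the rule for display and do not stand for the rest. Of the rest, KRT8, which fell, held no GGGCGG and TJP3, which rose, held 1 at each start site. DSP, which rose, held 7 in 250 upstream bases that overlap its untranslated sequence. CGN at chr1:151511137-151511386 on the plus strand held 5, CLDN3 at chr7:73770271-73770520 on the minus strand held 4, and FN1 at chr2:215436074-215436318 on the minus strand held 6 and 1 TGACGTCA.
CGN: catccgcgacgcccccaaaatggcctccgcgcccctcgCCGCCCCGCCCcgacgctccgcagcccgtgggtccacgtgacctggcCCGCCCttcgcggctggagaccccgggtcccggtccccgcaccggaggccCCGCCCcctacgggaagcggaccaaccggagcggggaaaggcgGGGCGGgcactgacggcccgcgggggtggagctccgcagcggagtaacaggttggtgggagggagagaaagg
CLDN3: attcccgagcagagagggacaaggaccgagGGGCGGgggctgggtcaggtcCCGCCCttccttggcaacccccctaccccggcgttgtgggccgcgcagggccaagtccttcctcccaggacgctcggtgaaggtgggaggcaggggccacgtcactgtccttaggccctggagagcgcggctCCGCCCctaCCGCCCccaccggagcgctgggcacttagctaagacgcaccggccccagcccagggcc
FN1: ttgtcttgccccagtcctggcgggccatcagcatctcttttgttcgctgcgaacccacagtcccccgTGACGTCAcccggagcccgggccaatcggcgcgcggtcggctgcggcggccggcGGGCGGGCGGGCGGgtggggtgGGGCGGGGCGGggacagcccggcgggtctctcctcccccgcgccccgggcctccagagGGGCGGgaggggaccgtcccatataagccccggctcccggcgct
In the 250 bases upstream of all 35116 RefSeq start sites, 42.6% held GGGCGG and 1.65% TGACGTCA, against 18 and 2 of the 28 start sites of epithelial genes and 8 and 1 of the 12 of mesenchymal markers. CACCTG, the E-box that SNAI and ZEB factors bind, was in 17.5% of these, in 11 of the 28 epithelial start sites and in 2 of the 12 mesenchymal ones, and in none of the 3 stretches printed. Among the genes not printed, DSP held 2 and TJP3 held 1 at 1 of its start sites, while KRT8 held none. AACCGGTT, a GRHL motif, was in 0.117% of the 35116 start sites and in none of the 40. These are matches of letters, and start sites of one gene share sequence, so no test was made.

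Desmosome genes gave 3 rises (50%, against 17.1% of all genes) and no fall among 6. DSP, desmoplakin, which ties keratin filaments to the desmosome, was at 159.6, 174 and 173 CPM in siCtrl against 220.0, 243 and 223 CPM in siMED12, and the groups did not overlap (log2 fold change 0.44 ± 0.09, unblocked and blocked adjusted p = 0.0693 and 1.52e-10). JUP, plakoglobin, was at 205, 226 and 207 against 224, 252 and 235 CPM, higher in each pair with overlapping groups (log2 fold change 0.16 ± 0.09, unblocked and blocked adjusted p = 0.451 and 0.00301). DSC2, a desmosomal cadherin, was at 19.4, 23.0 and 17.5 against 26.4, 22.5 and 23.3 CPM, higher in 2 of 3 pairs (log2 fold change 0.27 ± 0.15, unblocked and blocked adjusted p = 0.446 and 0.0254). Its call was lost without the libraries numbered 1 (0.351) or 3 (0.173) and after the GC and length correction (0.277). The DESeq2 Wald test within the block lost it too (adjusted p = 0.155). DSG2, the other desmosomal cadherin, was at 128, 144 and 129 against 129, 131 and 137 CPM, within the spread of the controls (log2 fold change -0.01 ± 0.09, unblocked and blocked adjusted p = 0.967 and 0.881). It passed, lower, after the GC and length correction (adjusted p = 0.0422). PKP3, a plakophilin, was at 191, 214 and 188 against 181, 209 and 171 CPM (log2 fold change -0.08 ± 0.11, unblocked and blocked adjusted p = 0.788 and 0.138) and passed, lower, without the libraries numbered 2 (0.0260). PKP2 ranged from 21.1 to 24.5 CPM in siCtrl and from 20.1 to 24.7 CPM in siMED12 and did not pass (adjusted p = 0.820 with the block). Over the 22 tested junction genes of the 3 groups, 12 rose and 4 fell with the block, and the 54.5% that rose stood above the 17.1% of all genes while the 18.2% that fell stood near the 16.2% of all genes. Their median log2 fold change was 0.18. After the GC and length correction within the block, 9 of the 22 were higher and 6 lower at the same threshold, against 14.1% and 18.8% of all genes. Their median in that fit was 0.10, against -0.01 over all genes.

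Among the regulators, the paired splicing factors that set epithelial isoforms moved in opposite directions. ESRP1 was at 126, 123 and 117 CPM in siCtrl against 137, 146 and 145 CPM in siMED12 and rose (log2 fold change 0.23 ± 0.08, unblocked and blocked adjusted p = 0.227 and 2.06e-04). ESRP2 was at 147, 147 and 136 against 130.0, 115 and 114 CPM and fell (log2 fold change -0.26 ± 0.09, unblocked and blocked adjusted p = 0.225 and 4.04e-05). Neither gene overlapped between groups. GRHL2, a transcription factor of epithelial genes, was at 153, 128 and 100.1 against 142, 133 and 111 CPM, with both groups in the same range (log2 fold change 0.01 ± 0.16, unblocked and blocked adjusted p = 0.980 and 0.755). OVOL1 (8.67 to 20.2 CPM over the 6 libraries), OVOL2 (7.21 to 10.8 CPM) and ELF3 (26.5 to 45.3 CPM) did not pass either, with adjusted p = 0.741, 0.539 and 0.0943 with the block. ELF3, an ETS factor, changed by -10.4%, -8.40% and -12.4% within the pairs.

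The mesenchymal markers did not move together: of 5 tested, TWIST1 rose (20%, against 17.1% of all genes) and FN1 and SNAI1 fell (40%, against 16.2%), counts too small to set apart from those shares. FN1, fibronectin, a matrix protein and EMT marker (chr2:215360440-215436073), was at 80.4, 84.0 and 70.3 CPM in siCtrl against 38.7, 30.4 and 26.4 CPM in siMED12. Every siMED12 library lay under every control, with changes of -51.9%, -63.8% and -62.5% within the pairs, and the gene passed in both fits (log2 fold change -1.30 ± 0.15, unblocked and blocked adjusted p = 0.0274 and 6.63e-18). Without the block the call was kept without siCtrl replicate 3 (0.0448) or siMED12 replicate 3 (0.0384) and lost without siCtrl replicates 1 (0.0818) or 2 (0.186) or siMED12 replicates 1 (0.0647) or 2 (0.180). Its exons overlap no other gene. The ratio of FN1 to CDH1 in CPM was 0.187, 0.186 and 0.165 in siCtrl and 0.0746, 0.0532 and 0.0485 in siMED12.

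TWIST1, a transcription factor that promotes EMT, was at 29.1, 24.8 and 18.3 CPM in siCtrl against 43.6, 39.5 and 28.0 CPM in siMED12. The lowest siMED12 library stood under the highest control, while within pairs of the same number the change was 49.9%, 59.4% and 52.8%, and the gene passed with the block but not without it (log2 fold change 0.62 ± 0.21, unblocked and blocked adjusted p = 0.213 and 3.91e-08). SNAI1, the repressor of CDH1, had 9, 169 and 175 counts in siCtrl and 9, 102 and 131 in siMED12. Both libraries numbered 1 stood far under the rest in either group, and the fall rested on numbers 2 and 3 (log2 fold change -0.57 ± 0.99, unblocked and blocked adjusted p = 0.849 and 0.0167). Without the libraries numbered 2 its adjusted p was 0.320. Within the block it was 0.156 with limma-trend and 0.152 with the DESeq2 Wald test. Counts of a SNAI1 pseudogene equalled 3.55% to 77.8% of those of SNAI1, highest in siMED12 replicate 1, where SNAI1 had 9 counts. VIM, vimentin, was at 8.51, 10.2 and 8.66 against 8.38, 11.8 and 11.8 CPM and CDH2, N-cadherin, at 8.15, 8.03 and 13.5 against 7.96, 6.20 and 10.4 CPM. Neither passed, with adjusted p = 0.225 and 0.152 with the block, and the groups of both overlapped.

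**Figure D3:**
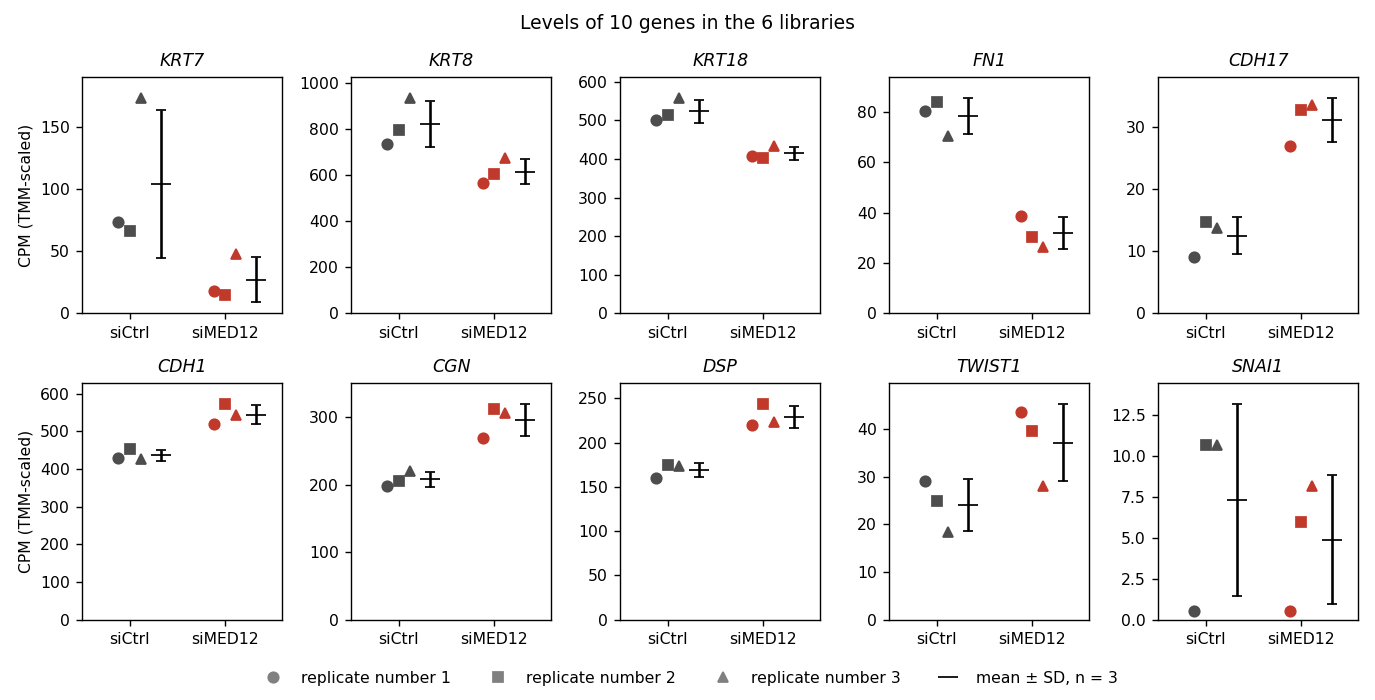
CPM of 10 genes in the 6 libraries, with symbols for the replicate numbers and the mean ± SD (n = 3) beside each group. The error bars of KRT8, KRT18, FN1, CDH17, CDH1, CGN and DSP do not overlap between groups. Those of KRT7, TWIST1 and SNAI1 do, and these genes vary with the replicate number in both groups. SNAI1 is at 0.535 CPM in both libraries numbered 1.

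Set side by side, the median log2 fold change was 0.01 for the 33 tested epithelial genes (13 rose, 10 fell) and -0.27 for the 5 tested mesenchymal markers (1 rose, 2 fell), where the median over all genes was 0.02. In fits without the block, the mesenchymal median turned to 0.0127 without siCtrl replicate 3 and to 0.1052 with the filter of at least 1 count. It was -0.0598 without siMED12 replicate 1 and reached -0.48 without siMED12 replicate 3. Its sign in the unblocked fits thus rested on the library left out and on the filter, but leaving out 1 library splits a pair. Within pairs 1, 2 and 3 the mesenchymal median was -0.0222, -0.3679 and -0.3708. With the block it was -0.2638, and it stayed negative when both libraries of any number were left out. With 5 genes the median is the value of 1 gene. In the main unblocked fit and in the blocked fit this gene was CDH2, which did not pass (blocked adjusted p = 0.152). The epithelial median, close to 0, lay between -0.0582 (without siCtrl replicate 1) and 0.0342 (without siMED12 replicate 3) when 1 library was left out of the unblocked fit. It was below 0 in 4 of those 6 fits. The 2 groups of genes share libraries and no test of the difference was made. The mean log2 CPM of the epithelial genes minus that of the mesenchymal markers was 2.80, 2.06 and 2.09 in siCtrl and 2.91, 2.37 and 2.33 in siMED12, higher in each pair while the groups overlapped. FN1, 1 of the 5 markers averaged, changed by -51.9%, -63.8% and -62.5% within the pairs and weighs heavily in this difference. CDH2 was also lower in each pair, by -2.34% in pair 1 and -22.9% in pairs 2 and 3. SNAI1 had 9 counts in both libraries numbered 1 and was lower in pairs 2 and 3. VIM was mixed and TWIST1 was higher in each pair. The difference without FN1 was not computed, so it does not show the markers moving together. The junction genes alone averaged 6.23, 6.33 and 6.23 log2 CPM in siCtrl and 6.43, 6.46 and 6.42 in siMED12, whereas the keratins averaged 6.43, 6.55 and 7.12 against 5.70, 5.63 and 6.40. The keratin averages were thus lower and the junction averages higher in each pair.

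The changes were set against transcript length and GC content, which also differed between the classes. With all genes split into 5 bins of equal size, the median log2 fold change ran from -0.06 for the shortest transcripts to 0.09 for the longest, and from 0.06 at the lowest GC content to -0.03 at the highest. KRT7, KRT8, KRT18, KRT19, CLDN3 and CLDN4, which fell, have canonical transcripts of 1.27 to 1.78 kb with 58.2% to 69.2% GC. CDH1, CDH3, CGN and DSP, which rose, have transcripts of 4.45 to 9.70 kb. Other called genes went the other way: FN1 (8.39 kb), F11R (4.64 kb, 46.7% GC) and CLDN12 (3.53 kb, 37.7% GC) fell, while TWIST1 (1.63 kb), TJP3 (63.2% GC) and JUP (61.5% GC) rose. After a correction for both within the block, 11 of the 38 genes rose and 14 fell, against 14.1% and 18.8% of all genes (32.9% in either direction). The log2 fold changes became -1.91 for KRT7, -0.37 for KRT8, -0.29 for KRT18, -0.47 for CLDN3, 0.25 for CDH1, 0.40 for CDH3, 0.49 for CGN, 0.30 for DSP and -1.43 for FN1, each still past the threshold.

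**Figure D4:**
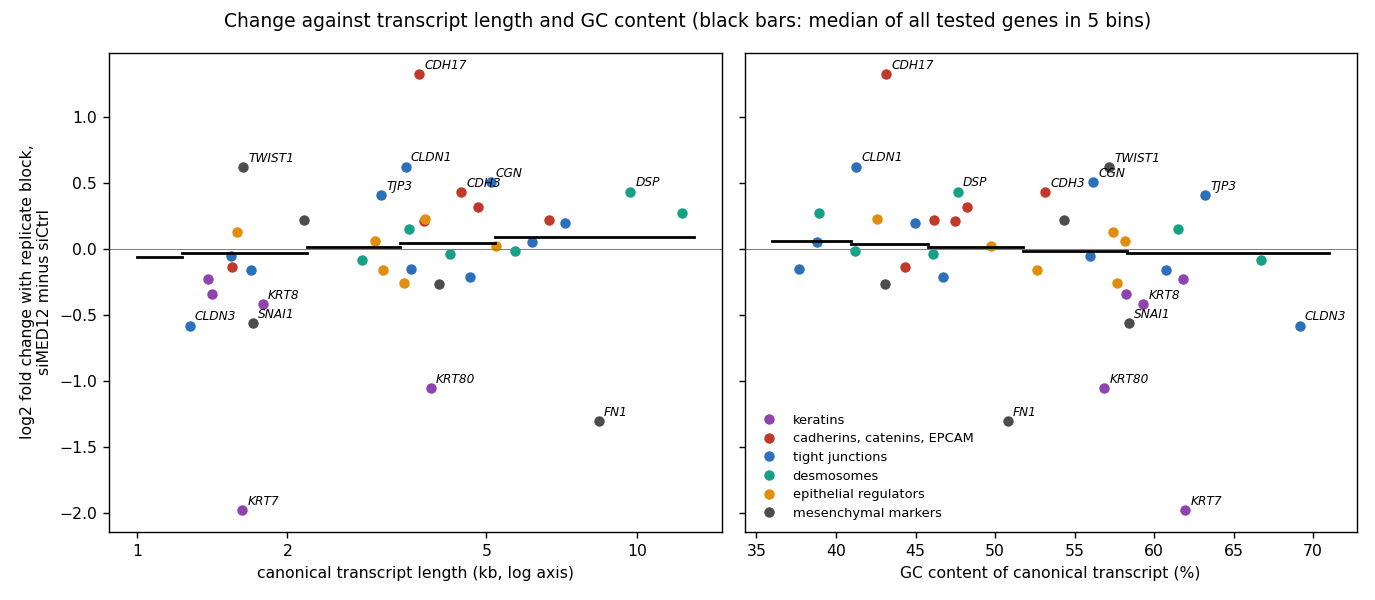
Log2 fold change (siMED12 minus siCtrl, fit with the replicate block) of the tested genes, coloured by role, against canonical transcript length (log axis) and GC content, with the median of all genes tested (fit without the block) in 5 bins as black bars. KRT7, CDH17, FN1 and KRT80 lie farthest from the bars, which move from -0.06 to 0.09 with length.

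The wider gene lists of the same structures held 145 other genes, of which 78 were tested. None passed without the block (15 higher and 7 lower at an unadjusted p below 0.05), and with it 31 were higher and 11 lower, or 39.7% and 14.1%, against 17.1% and 16.2% of all genes. Of 18 other cadherin and adherens junction genes 9 rose and 2 fell. Among those at a mean of 10 CPM or more, here and in the lists that follow, CDH7 rose most, from 15.2, 17.1 and 10.3 to 22.2, 24.4 and 15.9 CPM (log2 fold change 0.55 ± 0.23, unblocked and blocked adjusted p = 0.307 and 3.50e-05), and CDH6 fell most, from 20.2, 13.1 and 7.86 to 11.1, 5.50 and 4.57 CPM (log2 fold change -0.96 ± 0.42, unblocked and blocked adjusted p = 0.320 and 4.01e-07), both with overlapping groups. Of 19 other tight junction genes 8 rose and 1 fell, and PATJ, a scaffold of the Crumbs polarity complex, rose most, from 46.2, 44.6 and 49.6 to 64.6, 66.5 and 65.8 CPM without overlap (log2 fold change 0.49 ± 0.09, unblocked and blocked adjusted p = 0.0654 and 4.63e-08). CLDN11 was the gene that fell, from 19.1, 18.3 and 17.4 to 16.2, 14.0 and 13.2 CPM (log2 fold change -0.34 ± 0.15, unblocked and blocked adjusted p = 0.316 and 0.0109). Of the 5 other desmosome genes PKP4 rose (log2 fold change 0.20) and PERP fell (-0.13), and of 2 other tested keratins neither passed.

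Of 19 other epithelial regulators and surface genes 9 rose and 4 fell (47.4% and 21.1%, against 17.1% and 16.2% of all genes). PRSS8, the membrane protease prostasin, rose most, from 19.8, 30.2 and 37.9 to 28.4, 46.9 and 52.8 CPM with overlapping groups (log2 fold change 0.54 ± 0.28, unblocked and blocked adjusted p = 0.408 and 2.08e-07), and LAD1, ladinin, fell most, from 51.6, 54.7 and 44.7 to 40.3, 41.0 and 30.4 CPM (log2 fold change -0.44 ± 0.15, unblocked and blocked adjusted p = 0.201 and 2.57e-06). Of 15 other mesenchymal genes 4 rose and 3 fell (26.7% and 20.0%), counts too small to set apart from the shares of all genes. ITGA5, the alpha subunit of a fibronectin receptor, rose from 15.8, 16.5 and 19.1 to 25.8, 27.3 and 31.5 CPM without overlap (log2 fold change 0.72 ± 0.14, unblocked and blocked adjusted p = 0.0694 and 2.84e-08), the opposite direction to FN1. QKI, a splicing regulator, fell from 53.5, 55.5 and 45.8 to 43.8, 36.8 and 36.7 CPM (log2 fold change -0.40 ± 0.12, unblocked and blocked adjusted p = 0.175 and 1.73e-05).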

How the data were processed

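The 6 RNA-seq libraries came from 22Rv1 cells and were grouped by the labels into siCtrl (n = 3) and siMED12 (n = 3). Strand-specific libraries were made from captured poly(A) RNA per the labels. The authors used Rsubread to align reads to GRCh38 and to count them with Gencode Release 43, per the study's methods. The version of Rsubread, the use of strand and the treatment of reads with several matches are not given in the sources used here. The deposited counts are raw reads per gene for 62703 genes. The log2 CPM values the authors deposited, for 17901 genes, were recomputed from the counts to within 4.96e-09 (filterByExpr, TMM, prior count 2).

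The 43 genes, the wider lists and the tests were chosen with earlier results of these data known. Counts of all genes were tested in edgeR 4.0.16 (R 4.3.3): genes kept by filterByExpr (17901), TMM factors, quasi-likelihood F-test, treatment as the only term, two-sided p-values adjusted by the Benjamini-Hochberg method over all genes tested, and a threshold of 0.05. The SE of a log2 fold change was taken from it and its F statistic. Replicate numbers 1 to 3 stand in the labels of both groups. Departures from the group means correlated at 0.373 to 0.643 for same-numbered libraries, so these were treated as pairs. The rest correlated at -0.46 to -0.0233. Departures within a group cancel out, so this range is not separate support for the pairing. The value of the blocked fit is printed beside each result that the block changes. Replicates of a group differed by more than sampling noise. CPM are counts scaled to the TMM-adjusted library size, and RPKM divides them by the length of the canonical Gencode transcript. Coordinates were read from Gencode release 44 on GRCh38, which is newer than the study's and holds 99.9% of the counted gene IDs.

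Values in every library are given for genes of the list at a mean of 1 CPM or more that passed in either fit, for those whose mean reached 100 CPM and for the mesenchymal markers. Of the wider lists, the gene that changed most in each direction among those past the blocked threshold at a mean of 10 CPM or more is named. Other settings tried were scaling by DESeq2 size factors or by library size only, the Wald test of DESeq2 1.42.0, limma-trend (limma 3.58.1) on the deposited log2 CPM, other filters, a threshold of 0.01, the block and leaving out each library. The GC and length correction (a loess trend per library with span 0.5 as an offset, 17881 genes) and the alternatives within the block were added after seeing the data. Promoter sequences are shown for genes past the blocked threshold whose mean reached 10 CPM and whose log2 change reached 0.4 in size. Of 10 such genes 6 had an entry, and CGN, CLDN3 and FN1 were taken from these after their values were seen. Bases annotated as untranslated were left out. The scripts were tested on simulated data.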

Additional observations from a re-analysis of the deposited data

How the results depend on the processing

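Without the block, the count of higher genes was 1 and became 2 with library size only, 6 with the DESeq2 Wald test, 3 with a filter of at least 1 count in any library, 0 at an adjusted p below 0.01 and 14 with the replicate block. Leaving out 1 library at a time gave 0 to 0. The count of lower genes was 1 and became 4 with the DESeq2 Wald test, 3 with at least 1 count, 0 at 0.01 and 12 with the replicate block, and 0 to 1 on leaving out a library. For the other unblocked settings the share of all genes called is not given, so these counts describe the list alone. Within the block the counts stayed at 10 to 14 higher and 9 to 14 lower over 9 alternatives. Of the 26 genes called with the block, 19 passed in each of these 9. KRT80, CTNND1, CLDN1, CLDN12, TJP1, DSC2 and SNAI1 lost the call in at least 1, and EPCAM, DSG2 and PKP3 gained one. KRT80 had no adjusted p from DESeq2. The cause was not tested.

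For the epithelial genes the median log2 fold change, 0.0149, ranged from -0.0582 to 0.0342 when a library was left out. That of the mesenchymal markers, -0.2736, ranged from -0.48 to 0.0127, and was 0.1052 with the filter of at least 1 count, which admits markers of a few counts. The direction turned for 8 genes, none of them called with or without the block. With library size only, DSG2 was at 0.0289 (0.0294 with the block) and PKP2 at 0.0118 (0.0072 with the block). After the GC and length correction OCLN was at -0.0559 (-0.0545 with the block) and GRHL2 at -0.0436 (-0.0375 with the block), while a filter on a mean of 1 CPM put GRHL2 at -0.0018. Leaving out 1 library gave OCLN -5e-04 to 0.0955, DSG2 -0.0654 to 0.0451, PKP2 -0.1327 to 0.0342, GRHL2 -0.1333 to 0.1511, OVOL1 -0.1981 to 0.3378, OVOL2 -0.0018 to 0.2954, ELF3 -0.3135 to 0.0158 and CDH2 -0.48 to 0.0127. Leaving out both libraries of a number within the block turned DSG2 (0.0241), PKP2 (0.0042 and 0.0328), GRHL2 (-0.016 and -0.0302), OVOL1 (-0.0406) and OVOL2 (-0.1148). Residual degrees of freedom were 4 without the block and 2 with it, so the blocked fit leans on the spread shared across genes. Genes at a few counts, such as ZEB1 and CLDN8, cannot be compared at this depth.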
